A study of Mus musculus with 64 samples.

Results

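The genes described here are 10 imprinted genes that have been linked to growth and to the expansion of fat: Peg3, Mest, Nnat, Igf2, H19, Plagl1, Cdkn1c, Sgce, Grb10 and Ndn. They were chosen by symbol, and all 10 had a row among the 24328 genes counted in each of 64 RNA-seq libraries of mouse adipose tissue. The study, as its labels describe it, put mice on diets low (LFD) or high (HFD) in fat and then gave rosiglitazone, a thiazolidinedione that activates the nuclear receptor PPARγ, or a control. Inguinal white fat (iWAT, subcutaneous), epididymal white fat (eWAT, visceral) and brown fat (BAT) were sequenced. The strains were C57BL/6J (B6), 129S1/SvlmJ and their hybrid (F1).

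The B6 iWAT libraries were 4 on HFD with rosiglitazone, 4 on HFD as controls and 4 on LFD as controls. The 129S1/SvlmJ iWAT libraries were 4 on HFD with rosiglitazone and 4 on HFD as controls, and the F1 iWAT libraries 5 on LFD with rosiglitazone and 5 on LFD as controls. The eWAT libraries formed a first B6 set of 5 on HFD and 5 on LFD, for which no agent was named, and a second B6 set of 4 on HFD with rosiglitazone, 4 on HFD as controls and 4 on LFD as controls. The other eWAT libraries were 4 of 129S1/SvlmJ mice on HFD as controls and 4 of 129S1/SvlmJ mice on LFD as controls. BAT was represented by 4 B6 libraries on HFD with no agent named. Age, sex, length of diet and drug dose were not among the labels used here. The labels did not say that the replicates came from separate animals, so the p-values measure only the spread between these libraries.

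Imprinted genes are transcribed mainly from the copy inherited from 1 parent, and the silent copy usually carries DNA methylation at a nearby control region. Mest, Peg3, Nnat, Igf2, Plagl1, Sgce and Ndn are expressed mainly from the paternal copy in the mouse, and H19, Cdkn1c and, in most tissues, Grb10 from the maternal one. Many of these genes are highly expressed before birth and decline afterwards. Mest is the member best known in adult fat: in mice its transcript rises with dietary fat expansion and varies widely even among genetically identical animals. The counts are totals over both copies, so they carry no information on the allele of origin.

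The start regions of 5 members are shown because their CpG content and the hexamer bound by ZFP57, the zinc-finger protein that maintains methylation at imprinted control regions, set some of these genes apart in sequence. Each is the RefSeq promoter window on GRCm38.p6, 250 bases before to 50 after the transcript start, on the gene's own strand. Capitals mark TGCCGC on either strand.

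Mest: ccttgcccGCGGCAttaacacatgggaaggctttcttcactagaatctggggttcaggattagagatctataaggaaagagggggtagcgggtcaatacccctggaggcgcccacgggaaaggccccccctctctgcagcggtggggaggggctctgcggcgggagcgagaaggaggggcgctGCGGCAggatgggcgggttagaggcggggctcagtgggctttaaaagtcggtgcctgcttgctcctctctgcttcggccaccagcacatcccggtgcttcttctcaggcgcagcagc
Peg3: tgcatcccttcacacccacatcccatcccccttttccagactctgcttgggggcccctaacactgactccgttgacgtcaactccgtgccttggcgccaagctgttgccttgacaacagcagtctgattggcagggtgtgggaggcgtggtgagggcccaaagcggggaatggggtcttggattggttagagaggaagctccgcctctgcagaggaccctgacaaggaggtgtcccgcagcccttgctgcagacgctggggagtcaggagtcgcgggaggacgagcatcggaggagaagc
Nnat: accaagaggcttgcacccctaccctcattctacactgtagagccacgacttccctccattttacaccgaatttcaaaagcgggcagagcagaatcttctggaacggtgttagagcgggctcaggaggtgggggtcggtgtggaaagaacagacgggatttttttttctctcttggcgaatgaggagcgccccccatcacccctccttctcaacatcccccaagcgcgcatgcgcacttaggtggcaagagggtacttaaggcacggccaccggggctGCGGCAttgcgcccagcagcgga
Plagl1: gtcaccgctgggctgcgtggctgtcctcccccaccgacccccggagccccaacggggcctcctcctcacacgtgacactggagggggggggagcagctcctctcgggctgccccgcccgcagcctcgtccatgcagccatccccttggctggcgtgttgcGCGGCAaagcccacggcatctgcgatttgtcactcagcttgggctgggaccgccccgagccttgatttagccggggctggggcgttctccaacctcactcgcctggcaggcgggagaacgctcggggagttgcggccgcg
Grb10: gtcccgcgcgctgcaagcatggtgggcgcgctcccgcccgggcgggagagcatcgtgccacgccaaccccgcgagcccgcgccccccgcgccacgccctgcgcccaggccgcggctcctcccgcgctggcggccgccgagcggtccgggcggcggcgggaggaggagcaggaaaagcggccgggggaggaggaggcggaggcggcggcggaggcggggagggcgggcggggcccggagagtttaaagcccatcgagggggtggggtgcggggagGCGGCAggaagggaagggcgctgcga

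These windows lie at chr6:30737800-30738099 (plus strand) for Mest, chr7:6730370-6730669 (minus strand) for Peg3, chr2:157559828-157560127 (plus strand) for Nnat, chr10:13090582-13090881 (plus strand) for Plagl1 and chr11:12037371-12037670 (minus strand) for Grb10. The hexamer occurred in the windows shown for Mest, Nnat, Plagl1 and Grb10 and in 1 Igf2 window, but not in those of Peg3 or Ndn. Mest, Igf2 and Grb10 had other windows in the table, and 6 of the 13 windows of these members held it. Among the 6 are 2 overlapping Mest windows, starting at chr6:30737800 and chr6:30737803, with the same matches. Of all 32851 promoter windows in the table, 11.6% held it. The Grb10 window shown had 45 CpG dinucleotides, a number reached by 1.93% of all windows, and its other window had 9 and no hexamer. The Plagl1 window had 26 (reached by 16.9%), the Mest and Nnat windows shown 17 each (31.4%) and the Peg3 window 13, against a median of 7. Another Mest window, from a separate start, had 8 and no hexamer. The table held entries for 7 members; H19, Cdkn1c and Sgce had none. These matches describe letters and are not evidence of binding.

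Gene counts per library ran between 3099737 and 9551251, and the 10 members together took between 987 and 26730 of them (0.0189 to 0.361%). Reads tallied to no gene made up 64.3 to 70.6% in the F1 and first-set B6 eWAT libraries, against 29.3 to 49.1% in all others. Ambiguous reads made up 0.195 to 0.269% in the former and 0.672 to 1.23% in the latter. The reason was not tested. Levels are given in CPM, counts scaled to library size, with the trimmed mean of M values as the scaling over the 64 libraries. Adipocyte transcripts, summed over 9 markers, were low in B6 eWAT on HFD: 6461 to 18848 CPM in the first set on HFD against 30065 to 35806 on LFD, and 20410, 6408, 2926 and 10348 CPM in the second set's HFD controls against 20496 to 30088 in its LFD controls. Macrophage markers moved the other way there, at 5208 to 10737 CPM on HFD against 961 to 1302 on LFD in the first set and 3925 to 13059 on HFD against 728 to 1595 on LFD in the second. In these bulk samples fewer cells of a type and less RNA per cell cannot be told apart. Skeletal muscle transcripts were high in the B6 iWAT LFD controls (97296, 8692, 28871 and 40693 CPM, against 107 to 299 CPM in the HFD controls) and in HFD control replicate 3 of 129S1/SvlmJ iWAT (47016 CPM). The sequencing run or lane differed between the groups, and cannot be told apart from the contrast, in the second B6 diet contrast of eWAT, the 129S1/SvlmJ diet contrast, both strain contrasts of iWAT and all contrasts between depots.

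Mest, an endoplasmic reticulum protein of the α/β-hydrolase family, rose on HFD in B6 iWAT and in 129S1/SvlmJ eWAT. In B6 iWAT it stood at 772, 540, 632 and 810 CPM in the HFD controls and at 247, 135, 261 and 288 CPM in the LFD controls. Every HFD library was above every LFD library. The mean was 689 ± 125 CPM on HFD and 233 ± 67.6 CPM on LFD (SD, n = 4 each), a log2 fold change of 1.56 ± 0.22 (SE; edgeR quasi-likelihood test, adjusted p = 0.0013). The call passed with each library left out in turn and under every other setting tried.

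In 129S1/SvlmJ eWAT, Mest was at 268, 311, 166 and 181 CPM in the HFD controls, against 93.3, 79.4, 93.2 and 74.0 CPM in the LFD controls. Again the groups did not overlap, and Mest rose by 1.42 ± 0.17 on the log2 scale (SE, n = 4 each; edgeR adjusted p = 0.00034). When all eWAT libraries were fitted together, with 1 estimate of spread, this call was lost (edgeR adjusted p = 0.18).

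Peg3, a zinc-finger protein, showed its clearest change in the same 129S1/SvlmJ eWAT. Its values were 276, 205, 184 and 168 CPM on HFD and 25.8, 50.9, 38.5 and 44.3 CPM on LFD. The lowest HFD library had more than any LFD library by a wide margin. Peg3 rose by 2.36 ± 0.19 on the log2 scale (SE, n = 4 each; edgeR adjusted p = 2.2e-05), a 5.13-fold difference. Adipocyte marker sums were alike in the groups, at 27089 to 30414 CPM on HFD and 25981 to 28497 CPM on LFD, and macrophage sums were 1148 to 1471 CPM on HFD and 946 to 1324 CPM on LFD. In B6 iWAT, Peg3 had 351, 402, 233 and 322 CPM in the HFD controls and 261, 57.2, 191 and 220 CPM in the LFD controls. The ranges overlapped, and the log2 fold change of 0.84 ± 0.36 did not pass (SE, n = 4 each; edgeR adjusted p = 0.12), though it did without LFD control replicate 2, the low one (0.55, edgeR adjusted p = 0.047).

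B6 eWAT gave a different picture for both genes. In the first set Mest was at 155, 494, 447, 261 and 126 CPM on HFD and at 299, 134, 205, 172 and 294 CPM on LFD. In the second set it was at 639, 120, 34.6 and 257 CPM in the HFD controls and at 439, 355, 400 and 64.4 CPM in the LFD controls. Single libraries of a group differed by several-fold, and the ranges of the groups overlapped in both sets. The log2 fold changes were 0.42 ± 0.35 (SE, n = 5 each; edgeR adjusted p = 0.33) and -0.38 ± 0.80 (SE, n = 4 each; edgeR adjusted p = 0.71); the second was 0.01 without HFD control replicate 3 and -1.30 without replicate 1. Peg3 had 36.9, 111, 111, 113 and 60.7 CPM on HFD and 87.0, 49.99, 48.5, 60.5 and 62.4 CPM on LFD in the first set (log2 fold change 0.47 ± 0.28 SE, edgeR adjusted p = 0.16). Without HFD replicate 1, the low one, it passed (0.68, edgeR adjusted p = 0.014). In the second set it had 221, 30.3, 8.99 and 57.3 CPM in the HFD controls and 412, 215, 199 and 91.3 CPM in the LFD controls (log2 fold change -1.65 ± 0.83 SE, edgeR adjusted p = 0.13). HFD control replicate 1 was the high one, and it also had the highest adipocyte sum of its group. Without it Peg3 was lower on HFD by a log2 fold change of -2.94 (edgeR adjusted p = 0.0032), and with the replicate number as a block by -2.27 (edgeR adjusted p = 0.032). It also passed with all eWAT libraries in 1 fit (edgeR adjusted p = 0.019).

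**Figure D1:**
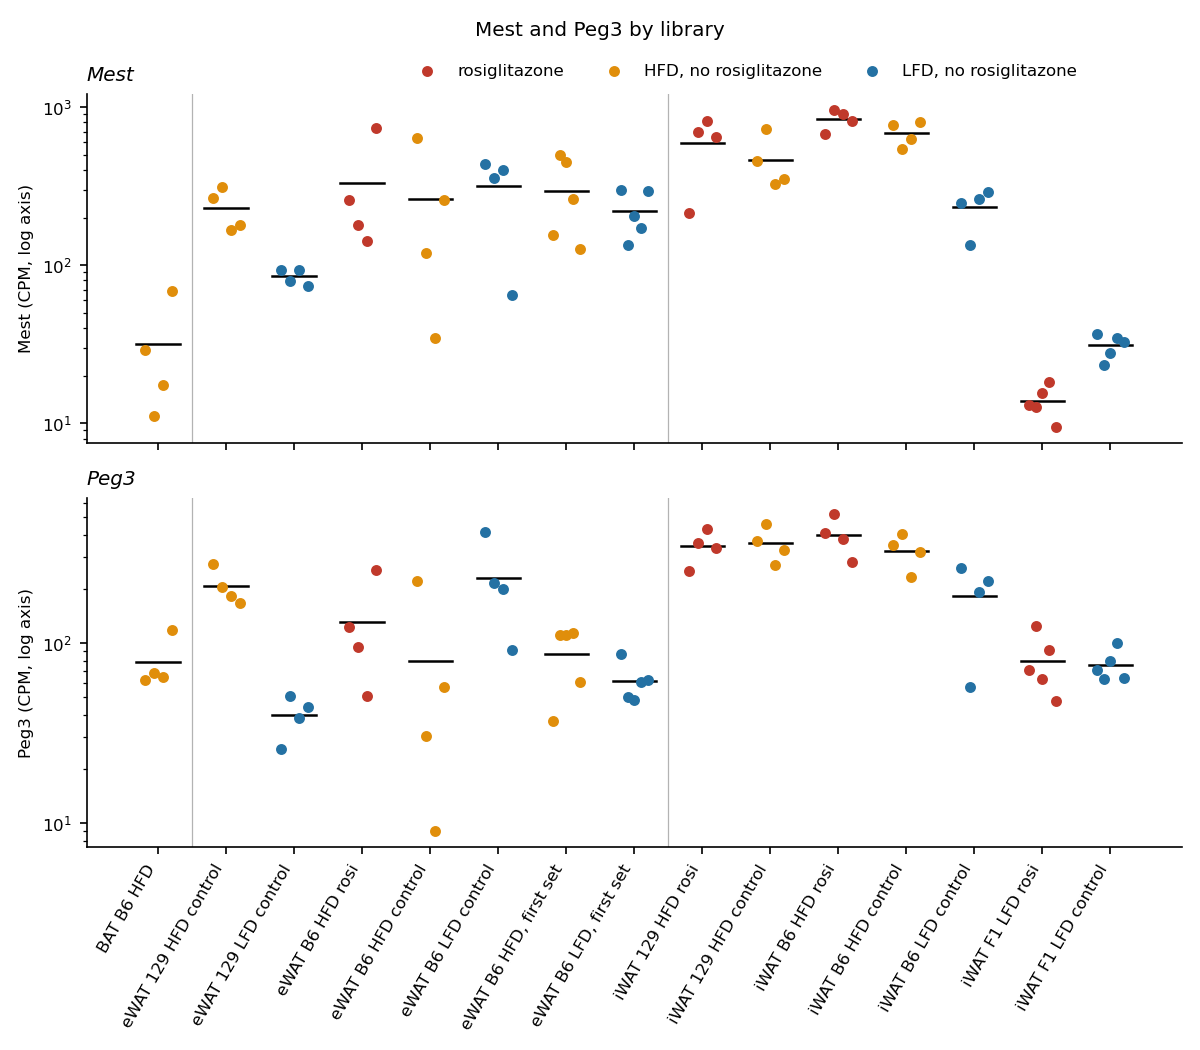
Mest and Peg3 in each library of the 15 groups, in CPM on a log axis; each point is a library and the bar is the group mean. Mest is above its LFD level in all 4 HFD controls of B6 iWAT and of 129S1/SvlmJ eWAT, Peg3 in all 4 of 129S1/SvlmJ eWAT, and the B6 eWAT groups are spread widely.

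The difference between the strains' diet effects in eWAT was itself tested. Peg3 differed by 3.97 ± 0.93 on the log2 scale, 129S1/SvlmJ minus B6 (SE; edgeR interaction term, adjusted p = 0.0032), and by 5.29 without B6 HFD control replicate 1. For Mest the interaction was 1.77 ± 0.89 and did not pass (edgeR adjusted p = 0.12), but it was 2.71 without that library (edgeR adjusted p = 0.0059). Of 9 members tested, 6 passed this interaction with a positive sign and 0 with a negative one, where 18.7% of all genes passed with a positive and 21.5% with a negative sign. The members' median interaction was 1.77. Of 9 adipocyte markers 7 passed with a positive sign and 0 with a negative one (median 1.61). Of 10 endothelial markers 10 were positive, of 10 macrophage markers 9 were negative and of 12 stromal markers 7 were negative. The part of these lists in the members' interactions was not tested.

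Peg3 and Mest also varied together between libraries of 1 group. The correlation of their log2 levels after removal of group means was 0.81 over 64 libraries, and 0.65 over the 51 libraries other than B6 eWAT on HFD. This is a description: libraries share depth and tissue makeup.

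Genes reported to vary with Mest in expanding mouse fat were described alongside: the secreted Wnt inhibitor Sfrp5, the growth factor Bmp3, the Wnt pathway inhibitor Nkd1, the natriuretic peptide clearance receptor Npr3 and leptin, Lep. In B6 iWAT 4 of the 5 rose on HFD, where 11.7% of all genes rose (median log2 fold change 0.95, against -0.01 over all genes). Bmp3 averaged 136 ± 33.5 CPM on HFD and 69.9 ± 14.9 CPM on LFD (SD, n = 4 each; log2 fold change 0.95 ± 0.19 SE, edgeR adjusted p = 0.0068). In 129S1/SvlmJ eWAT 4 of 5 rose as well, where 11.9% of all genes rose (median 0.64, against 0.01 over all genes), with Sfrp5 at 145 ± 25.9 CPM on HFD and 65.01 ± 20.4 CPM on LFD (SD, n = 4 each; log2 fold change 1.14 ± 0.19 SE, edgeR adjusted p = 0.0019). In B6 eWAT 0 of 5 passed in either set by edgeR (medians -0.16 and -0.81); 1 gene of the first set (Nkd1) and 0 of the second had an unadjusted p under 0.05, and 0 passed by DESeq2 in either.

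Neuronatin (Nnat), a small membrane protein of the endoplasmic reticulum, and Plagl1, a zinc-finger transcription factor, were, with Igf2, the members that fell furthest on HFD in B6 eWAT. In the first set Nnat had 63.0, 173, 170, 273 and 144 CPM on HFD against 993, 858, 862, 991 and 818 CPM on LFD. The highest HFD library lay far under the lowest LFD library. Nnat fell by 2.47 ± 0.28 on the log2 scale (SE, n = 5 each; edgeR adjusted p = 9.9e-06). Plagl1 had 3.96, 21.5, 20.03, 14.8 and 10.1 CPM on HFD against 69.3, 44.4, 61.9, 71.4 and 77.8 CPM on LFD, and fell by 2.26 ± 0.32 (SE; edgeR adjusted p = 5.1e-05).

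The second set gave the same direction. Nnat stood at 208, 49.1, 23.1 and 104 CPM in the HFD controls and at 1155, 953, 711 and 1391 CPM in the LFD controls, and fell by 3.60 ± 0.63 on the log2 scale (SE, n = 4 each; edgeR adjusted p = 0.0017). Plagl1 stood at 16.1, 7.43, 2.82 and 12.0 CPM on HFD and at 41.5, 61.4, 54.1 and 76.0 CPM on LFD, and fell by 2.74 ± 0.44 (SE; edgeR adjusted p = 0.0011). No HFD library reached any LFD library for either gene. In both genes the HFD controls ran from replicate 1 through replicates 4 and 2 down to replicate 3, the order of their adipocyte marker sums. Without replicate 1 the log2 fold change of Nnat was -4.28.

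Sgce, which encodes ε-sarcoglycan, and Grb10, an adaptor that binds the insulin and IGF1 receptors and restrains their signalling, fell less. Sgce was at 27.4, 52.4, 51.9, 46.2 and 24.05 CPM on HFD against 58.5, 71.1, 74.2, 65.3 and 63.5 CPM on LFD in the first set (log2 fold change -0.74 ± 0.20 SE, edgeR adjusted p = 0.0059). In the second set it was at 43.6, 25.0, 22.0 and 24.9 CPM on HFD against 70.5, 53.1, 45.5 and 57.9 CPM on LFD (log2 fold change -1.11 ± 0.23 SE, edgeR adjusted p = 0.0041). Grb10 averaged 64.2 ± 11.6 CPM on HFD and 92.3 ± 7.58 CPM on LFD (SD, n = 5 each; log2 fold change -0.53 ± 0.12 SE, edgeR adjusted p = 0.0021). Its second-set means were 59.5 ± 7.68 CPM on HFD and 94.7 ± 7.47 CPM on LFD (SD, n = 4 each; log2 fold change -0.81 ± 0.13 SE, edgeR adjusted p = 0.00095). In each of these comparisons the groups were apart.

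In all, 6 of 9 members tested fell and 0 rose in the first set, where 28.5% of all genes fell and 29.5% rose, and 5 of 9 fell and 0 rose in the second, where 24.3% fell and 25.7% rose. The members' median log2 fold change was -0.64 in the first set and -1.11 in the second, against 0.00 and -0.02 over all genes. H19, which the filter on low counts had left out of both fits, rose on HFD without that filter. Its log2 fold change was 2.14 in the first set (edgeR adjusted p = 0.015) and 2.19 in the second (edgeR adjusted p = 0.037). It averaged 2.73 and 1.26 CPM on HFD, against 0.667 and 0.270 CPM on LFD. Adipocyte markers were lower and macrophage markers higher in the same libraries, as given above. Of 10 endothelial markers 10 were lower on HFD in each set (median log2 fold change -0.99 in the first and -1.51 in the second), of 12 stromal markers 7 and 8 were higher, and of 8 mesothelial markers 8 and 3 were lower. For all these lists their part in the falls was not tested. Members were also set per 1000 CPM of adipocyte markers, a measure chosen after the values were seen. Nnat then had a first-set median of 10.7 CPM on HFD and 27.2 CPM on LFD. The ranges all but touched there, with the highest HFD library at 23.945 CPM and the lowest LFD library at 23.949 CPM. In the second set Nnat had 8.99 CPM on HFD and 41.6 CPM on LFD. The highest HFD library there was at 10.2 CPM and the lowest LFD library at 34.7 CPM. Plagl1 overlapped on this measure in the first set (1.26 against 2.29 CPM) but not in the second (1.06 against 2.71 CPM), and Igf2 overlapped in both. On the same measure Grb10 and Sgce were higher on HFD than on LFD in the first set (4.94 against 2.88 CPM and 3.25 against 2.1 CPM), and so were Mest (22.9 against 6.38 CPM) and Peg3 (6.97 against 1.95 CPM). In the second set these 4 genes overlapped between the diets, and Peg3 had a lower median on HFD (5.14 against 9.91 CPM).

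**Figure D2:**
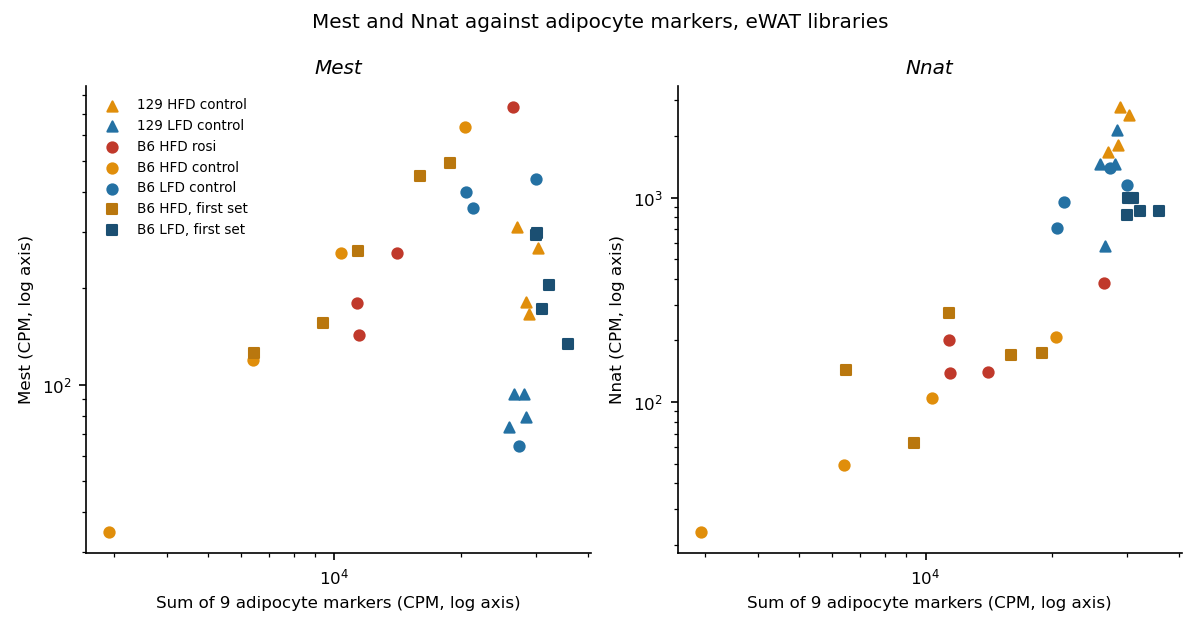
Mest and Nnat (CPM, log axis) against the sum of 9 adipocyte markers (CPM, log axis) in the eWAT libraries, each point a library coloured by group. B6 HFD libraries reach down to a sum of 2926 CPM, while the 129S1/SvlmJ HFD libraries, at 27089 to 30414 CPM, stand beside the LFD libraries.

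Neither Nnat nor Plagl1 passed in 129S1/SvlmJ eWAT. Nnat had 2528, 1670, 2769 and 1812 CPM on HFD and 1457, 2144, 579 and 1466 CPM on LFD (log2 fold change 0.62 ± 0.29 SE, n = 4 each, edgeR adjusted p = 0.14). It passed without the filter on low counts (edgeR adjusted p = 0.0085) and without LFD control replicate 2 (edgeR adjusted p = 0.044). Plagl1 averaged 57.3 ± 8.64 CPM on HFD and 63.8 ± 14.2 CPM on LFD (SD, n = 4 each). The interaction of diet with strain was 4.17 ± 0.73 for Nnat (SE; edgeR adjusted p = 0.00042), 2.52 ± 0.46 for Plagl1, 1.09 ± 0.26 for Sgce and 0.90 ± 0.16 for Grb10, all on the log2 scale as 129S1/SvlmJ minus B6. Without B6 HFD control replicate 1 the interaction of Nnat was 4.88. In 129S1/SvlmJ eWAT 2 of 9 members rose (Mest and Peg3) and 1 fell (Ndn), where 11.9% of all genes rose and 9.27% fell, and the members' median was 0.13 against 0.01 over all genes.

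Between strains on HFD, Nnat was higher in 129S1/SvlmJ. In eWAT the 129S1/SvlmJ HFD controls, at 1670 to 2769 CPM, and the B6 HFD controls, at 23.1 to 208 CPM, differed by a log2 fold change of 4.54 ± 0.66 (SE, n = 4 each; edgeR adjusted p = 0.0006), and by 5.29 without B6 replicate 1. In iWAT Nnat was at 2055, 1736, 1894 and 2719 CPM in the 129S1/SvlmJ HFD controls and at 651, 885, 356 and 630 CPM in the B6 HFD controls. Here too the groups were apart, by a log2 fold change of 1.72 ± 0.24 (SE; edgeR adjusted p = 0.00051). Adipocyte markers in the B6 HFD controls of iWAT, at 26491 to 31719 CPM, were not low as they were in eWAT. In the same contrast 7 of 10 macrophage markers and 9 of 10 endothelial markers were lower in 129S1/SvlmJ, and 12 of 15 muscle markers were higher. Macrophage markers summed to 682 to 965 CPM in 129S1/SvlmJ and 1094 to 2219 CPM in B6, and endothelial markers to 705 to 823 CPM in 129S1/SvlmJ and 1089 to 1186 CPM in B6. Their part in the members' differences was not tested. With rosiglitazone Nnat had 1455, 1534, 1751 and 1968 CPM in 129S1/SvlmJ iWAT and 405, 656, 747 and 524 CPM in B6 iWAT (log2 fold change 1.5 ± 0.19 SE, edgeR adjusted p = 0.00057). Blcap, whose gene contains Nnat in an intron, was higher in the 129S1/SvlmJ HFD controls of iWAT by 0.68 ± 0.12 (SE; edgeR adjusted p = 0.0020), and without knowledge of strand reads of overlapping genes cannot be assigned with certainty.

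Of 10 members tested between the HFD controls of iWAT, 5 were higher in 129S1/SvlmJ and 0 lower, where 11.7% of all genes were higher and 16.1% lower: Nnat, Igf2, Plagl1, Cdkn1c and Ndn. Plagl1 had 35.7, 34.8, 31.6 and 40.2 CPM in 129S1/SvlmJ and 16.8, 35.0, 16.7 and 21.3 CPM in B6, with ranges that overlapped through B6 replicate 2 (log2 fold change 0.64 ± 0.21 SE, edgeR adjusted p = 0.041). That call was lost on leaving out B6 replicate 1, 3 or 4 or 129S1/SvlmJ replicate 1, 2 or 4, and the one of Ndn on leaving out B6 replicate 2 or 4 or 129S1/SvlmJ replicate 1 or 3. With rosiglitazone 4 of 10 were higher and 0 lower in 129S1/SvlmJ (7.32% of all genes were higher and 8.69% lower): Nnat, Igf2, Plagl1 and H19. The call of Plagl1 there was lost with the replicate number as a block (edgeR adjusted p = 0.052) and on leaving out any library but B6 replicate 1 or 129S1/SvlmJ replicate 2. In eWAT on HFD 6 of 9 were higher in 129S1/SvlmJ and 0 lower (25.3% of all genes were higher and 28.9% lower), and the members' median log2 difference was 1.37. In that contrast 7 of 9 adipocyte markers were higher (median 1.61) and 9 of 10 macrophage markers lower, and their part was not tested. Mest did not pass there (log2 difference -0.16 ± 0.71 SE, edgeR adjusted p = 0.87; 0.82 without B6 replicate 1). Peg3, at 168 to 276 CPM in 129S1/SvlmJ and 8.99 to 221 CPM in B6, passed without that library (log2 difference 2.77, edgeR adjusted p = 0.00071) or with the replicate number as a block (2.21, edgeR adjusted p = 0.035), but not in the fit of these 8 libraries without a block (1.41 ± 0.78 SE, edgeR adjusted p = 0.15).

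On LFD, Mest and Peg3 were lower in 129S1/SvlmJ eWAT than in B6 eWAT. Peg3 had 25.8, 50.9, 38.5 and 44.3 CPM in the 129S1/SvlmJ LFD controls and 412, 215, 199 and 91.3 CPM in the B6 LFD controls, a log2 difference of -2.56 ± 0.36 (SE, n = 4 each; edgeR adjusted p = 0.00042). Mest, at 74.0 to 93.3 CPM in 129S1/SvlmJ and 64.4 to 439 CPM in B6, differed by -1.92 ± 0.40 (SE; edgeR adjusted p = 0.0041), with an overlap through B6 replicate 4. Of 9 members 1 was higher (Ndn) and 2 were lower in 129S1/SvlmJ, where 16.1% of all genes were higher and 16.2% lower. These libraries were sequenced in the same lane. The first-set B6 LFD libraries, sequenced apart, had 48.5 to 87.0 CPM of Peg3 and 134 to 299 CPM of Mest.

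**Figure D3:**
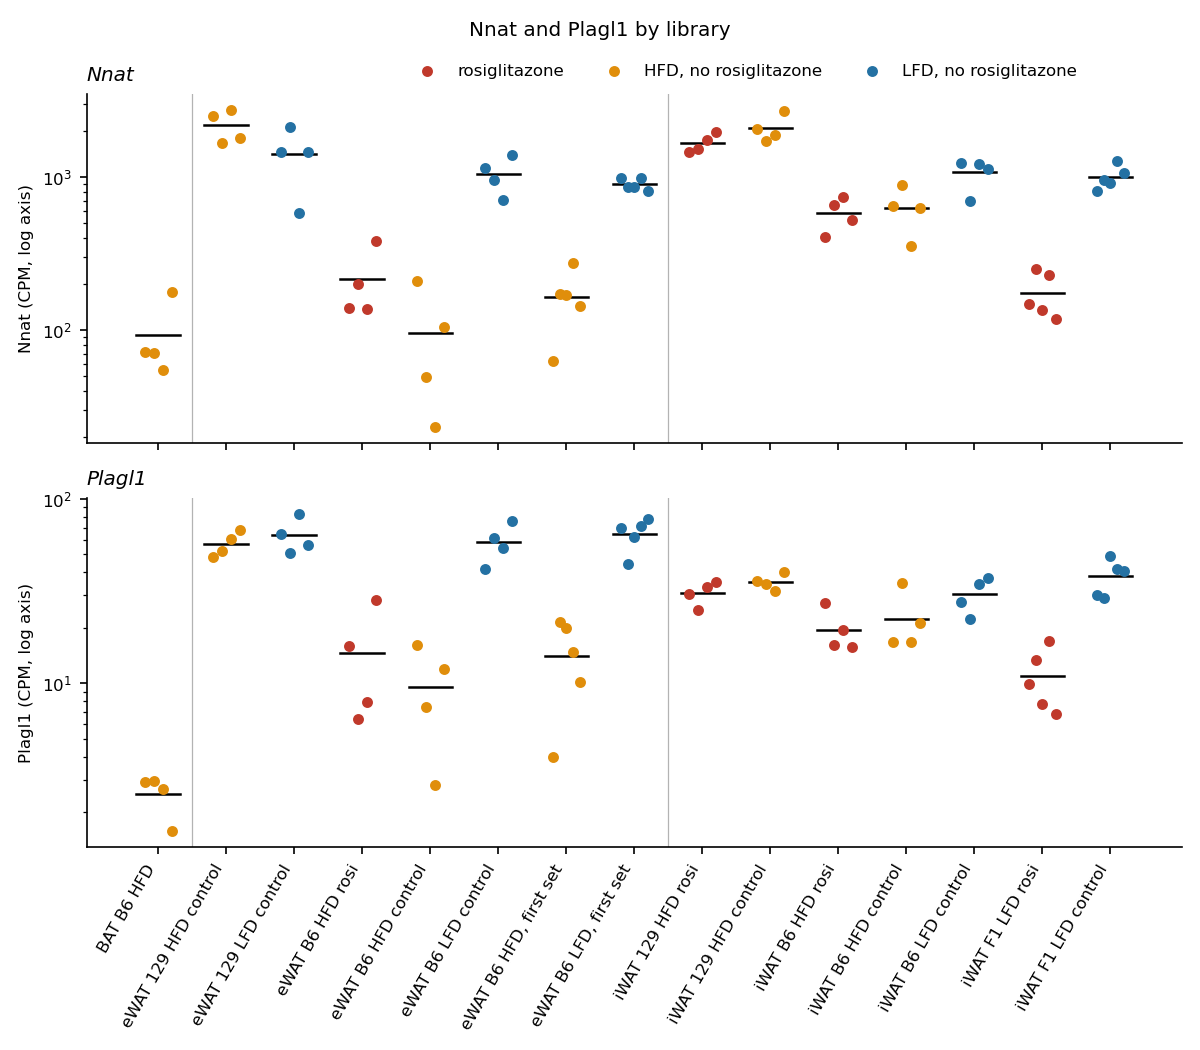
Nnat and Plagl1 in each library of the 15 groups, in CPM on a log axis; each point is a library and the bar is the group mean. Both are low in B6 eWAT on HFD, in B6 BAT and in F1 iWAT with rosiglitazone, and Nnat stands at 1455 CPM or above in every 129S1/SvlmJ HFD library.

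Rosiglitazone changed members in F1 iWAT on LFD. Nnat had 148, 252, 135, 229 and 117.4 CPM with the drug and 808, 958, 911, 1275 and 1073 CPM in the controls (log2 fold change -2.51 ± 0.21 SE, n = 5 each, edgeR adjusted p = 2.8e-06). Plagl1 had 9.86, 13.4, 7.74, 17.0 and 6.84 CPM with the drug and 29.96, 28.9, 49.1, 41.5 and 40.7 CPM in the controls. Mest had 13.1, 12.6, 15.5, 18.1 and 9.40 CPM with the drug and 36.9, 23.4, 27.7, 34.8 and 32.6 CPM in the controls. For all 3 genes each treated library lay under each control library.

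Plagl1 fell by 1.77 ± 0.23 on the log2 scale (SE; edgeR adjusted p = 5.7e-05) and Mest by 1.18 ± 0.18 (SE; edgeR adjusted p = 0.00025). Sgce averaged 29.3 ± 4.54 CPM with the drug and 49.5 ± 5.89 CPM in the controls (SD, n = 5 each; log2 fold change -0.75 ± 0.11 SE, edgeR adjusted p = 0.00023). Grb10 averaged 46.8 ± 5.47 CPM with the drug and 80.1 ± 14.9 CPM in the controls (SD, n = 5 each; log2 fold change -0.77 ± 0.13 SE, edgeR adjusted p = 0.00039). Cdkn1c, the cyclin-dependent kinase inhibitor p57, rose: it had 8.41, 13.4, 8.07, 10.6 and 10.3 CPM with the drug and 4.43, 7.23, 6.02, 6.75 and 5.48 CPM in the controls (log2 fold change 0.77 ± 0.19 SE, edgeR adjusted p = 0.0067). Peg3 averaged 79.5 ± 29.5 CPM with the drug and 75.6 ± 15.2 CPM in the controls, with overlapping ranges.

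Thus 5 of 9 members tested fell, where 19.1% of all genes fell, and 1 rose, where 18.7% rose; the members' median log2 fold change was -0.75, against -0.03 over all genes. Each of the 6 calls held in every fit that left out 1 library. In the same libraries brown fat markers summed to 2198 to 7165 CPM with the drug and 239 to 579 CPM in the controls, stromal markers to 2339 to 3892 CPM with the drug and 4077 to 7628 CPM in the controls, and macrophage markers to 154 to 310 CPM with the drug and 316 to 1176 CPM in the controls. Adipocyte markers summed to 25387 to 37240 CPM with the drug and 20612 to 30331 CPM in the controls. The part of these markers in the members' changes was not tested. The F1 groups also had the lowest means of Mest in white fat, 13.7 ± 3.27 CPM with the drug and 31.1 ± 5.47 CPM in the controls (SD, n = 5 each). Their share of reads on no gene was also above that of the other iWAT libraries, as given above. The part of this in the Mest means was not tested.

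With rosiglitazone on HFD the members' changes did not pass. In B6 iWAT 0 of 9 members passed by edgeR, 3 had an unadjusted p under 0.05 (Igf2, Cdkn1c and Sgce) and 1, Cdkn1c, passed by DESeq2; 13.2% of all genes passed. Cdkn1c was at 11.8, 9.64, 6.51 and 14.5 CPM with the drug and at 6.40, 5.27, 6.19 and 8.08 CPM in the controls (log2 fold change 0.70 ± 0.24 SE, n = 4 each, edgeR adjusted p = 0.086). It passed with all iWAT libraries in 1 fit (edgeR adjusted p = 0.019) and without rosiglitazone replicate 3 (edgeR adjusted p = 0.025). Igf2 was at 1.41, 2.08, 2.35 and 2.31 CPM with the drug and at 4.27, 5.27, 4.02 and 2.08 CPM in the controls (log2 fold change -0.93 ± 0.31 SE, edgeR adjusted p = 0.078; 0.027 without control replicate 4). Mest was at 672, 964, 900 and 812 CPM with the drug and at 772, 540, 632 and 810 CPM in the controls (log2 fold change 0.26 ± 0.15 SE, edgeR adjusted p = 0.28).

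In 129S1/SvlmJ iWAT on HFD 0 of 10 members passed by edgeR, 0 had an unadjusted p under 0.05 and 0 passed by DESeq2, where 0.11% of all genes passed by edgeR. Mest there was at 214, 693, 822 and 650 CPM with the drug and at 455, 725, 328 and 349 CPM in the controls (log2 fold change 0.35 ± 0.37 SE, n = 4 each, edgeR adjusted p = 0.89). In B6 eWAT on HFD 0 of 9 members passed by edgeR, 0 had an unadjusted p under 0.05 and 0 passed by DESeq2; 0% of all genes passed by edgeR, 624 of 13213 had an unadjusted p under 0.05 and 30 passed by DESeq2. Nnat was at 140, 201, 138 and 381 CPM with the drug and at 208, 49.1, 23.1 and 104 CPM in the controls (log2 fold change 1.27 ± 0.66 SE, n = 4 each, edgeR adjusted p = 0.93; 1.99 without control replicate 1). The drug's effect did not differ past the threshold between 129S1/SvlmJ and B6 iWAT for any of 10 members by edgeR (1, Cdkn1c, had an unadjusted p under 0.05, and 0 passed by DESeq2; 0.106% of all genes passed), nor between eWAT and iWAT of B6 for any of 10 (0 had an unadjusted p under 0.05 and 0 passed by DESeq2; 0% of all genes passed by edgeR). The difference between the drug's effects in the F1 and the other strains was not tested, since strain, diet and sequencing run all differ.

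**Figure D4:**
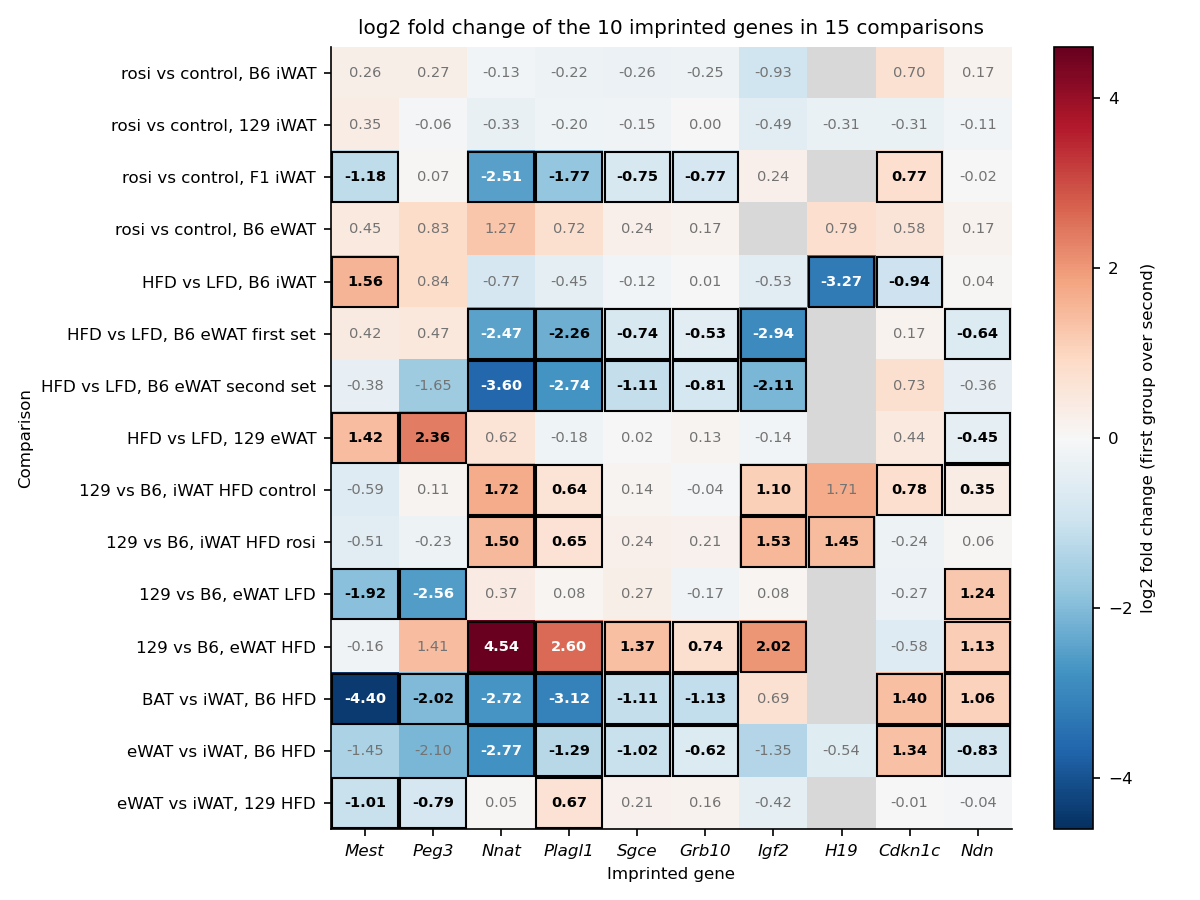
Heat map of the log2 fold change of each member (columns) in 15 comparisons (rows), first-named group over second, with the value in each cell; a bold value in a black frame has an edgeR adjusted p under 0.05, and grey cells were not tested. Nnat and Plagl1 are blue in the F1 drug contrast (-2.51 and -1.77) and in both B6 eWAT diet contrasts, and Mest and Peg3 are red in the 129S1/SvlmJ diet contrast (1.42 and 2.36).

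Igf2, a fetal growth factor, and H19, a noncoding RNA that shares its control region, had low counts in most libraries. Igf2 fell on HFD in B6 eWAT: it had 0.165, 0.247, 1.92, 1.32 and 1.57 CPM on HFD against 6.47, 8.12, 9.98, 7.66 and 5.82 CPM on LFD in the first set, a log2 fold change of -2.94 ± 0.39 (SE, n = 5 each; edgeR adjusted p = 3.5e-05). In the second set it had 3.18, 0.487, 0.939 and 1.69 CPM on HFD against 9.21, 4.70, 4.68 and 6.52 CPM on LFD (log2 fold change -2.11 ± 0.49 SE, n = 4 each, edgeR adjusted p = 0.0066; -2.72 without HFD control replicate 1). The groups were apart in both. In 129S1/SvlmJ eWAT it averaged 6.36 ± 1.49 CPM on HFD and 6.93 ± 2.09 CPM on LFD (SD, n = 4 each), and the interaction was 1.93 ± 0.54 (SE, 129S1/SvlmJ minus B6; edgeR adjusted p = 0.010; 2.57 without that library).

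Igf2 was higher in 129S1/SvlmJ iWAT than in B6 iWAT with and without the drug. It had 6.65, 7.55, 8.56 and 10.9 CPM in the 129S1/SvlmJ HFD controls and 4.27, 5.27, 4.02 and 2.08 CPM in the B6 HFD controls (log2 fold change 1.10 ± 0.27 SE, edgeR adjusted p = 0.012). With rosiglitazone it had 5.89, 3.61, 7.33 and 7.09 CPM in 129S1/SvlmJ and 1.41, 2.08, 2.35 and 2.31 CPM in B6 (log2 fold change 1.53 ± 0.28 SE, edgeR adjusted p = 0.0049). Every 129S1/SvlmJ library exceeded every B6 library in both comparisons.

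H19 was highest in 5 iWAT libraries with much muscle transcript, though not in every such library. It had 1.56, 0.440, 3.68 and 1.35 CPM in the B6 HFD controls against 26.9, 18.7, 10.9 and 9.94 CPM in the B6 LFD controls, a log2 fold change of -3.27 ± 0.50 (SE, n = 4 each; edgeR adjusted p = 0.0019). The LFD libraries had 8692 to 97296 CPM of muscle markers, and 17 of the 17 muscle genes tested were lower on HFD. In 129S1/SvlmJ iWAT it had 1.90, 1.58, 17.7 and 0.544 CPM in the HFD controls, and replicate 3, the high one, was the library with 47016 CPM of muscle markers, against 92 to 466 CPM in the other 3. H19 is expressed in skeletal muscle; the part of muscle in its fall on HFD was not tested. In eWAT, H19 stayed at 4.29 CPM or less in every library. The strain difference with rosiglitazone was 1.45 ± 0.44 (SE, edgeR adjusted p = 0.048). Its call was lost under size factors of DESeq2, without the filter on low counts and on leaving out any library but B6 replicate 1 (edgeR adjusted p = 0.051 to 0.17 over these and the fit of all iWAT libraries). Muscle markers there summed to 456 to 12088 CPM in 129S1/SvlmJ and 85.3 to 1117 CPM in B6. The 129S1/SvlmJ library with 12088 CPM of muscle markers, more than the 8692 CPM of B6 LFD control replicate 2, had 3.93 CPM of H19, against 18.7 CPM in that B6 library.

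**Figure D5:**
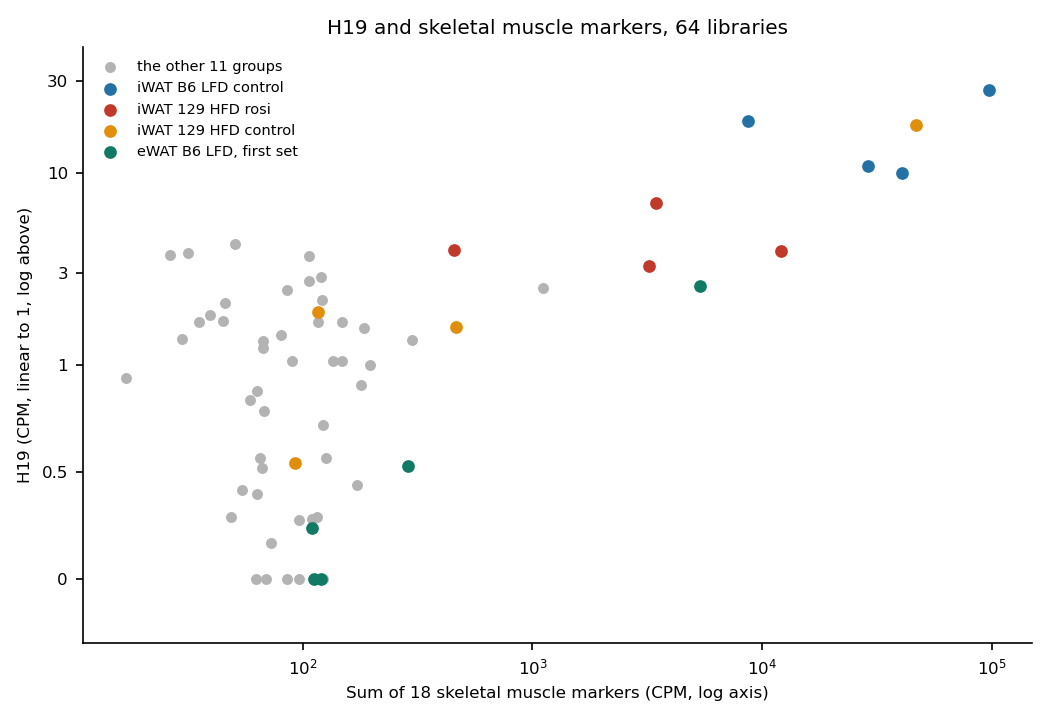
H19 (CPM, axis linear up to 1 and logarithmic above) against the sum of 18 skeletal muscle markers (CPM, log axis) in 64 libraries, each point a library, with 4 groups coloured. The 4 B6 LFD controls of iWAT and HFD control replicate 3 of 129S1/SvlmJ iWAT have the highest H19 values, and all 5 have 8692 CPM or more of muscle markers. A 129S1/SvlmJ rosiglitazone library with 12088 CPM of muscle markers has 3.93 CPM of H19.

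Cdkn1c fell on HFD in B6 iWAT, with 6.40, 5.27, 6.19 and 8.08 CPM in the HFD controls against 13.7, 10.9, 11.3 and 13.9 CPM in the LFD controls (log2 fold change -0.94 ± 0.16 SE, n = 4 each, edgeR adjusted p = 0.0032). Muscle markers summed to 8692 to 97296 CPM in these LFD controls and 107 to 299 CPM in the HFD controls. Their part in the fall of Cdkn1c was not tested. Cdkn1c was higher in the 129S1/SvlmJ HFD controls of iWAT than in the B6 ones, at 11.4 ± 2.20 CPM in 129S1/SvlmJ and 6.49 ± 1.17 CPM in B6 (SD, n = 4 each; log2 fold change 0.78 ± 0.19 SE, edgeR adjusted p = 0.011). The groups were apart in both comparisons. With Mest, which rose, and H19, which fell, these were the 3 of 10 members that passed in the B6 iWAT diet contrast, where 11.7% of all genes rose and 11.1% fell; the members' median was -0.28, against -0.01. Nnat averaged 631 ± 216 CPM on HFD and 1073 ± 253 CPM on LFD there and missed the threshold (log2 fold change -0.77 ± 0.26 SE, edgeR adjusted p = 0.058); it passed by DESeq2 (adjusted p = 0.015), and without HFD control replicate 2 or LFD control replicate 2 by edgeR.

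Necdin (Ndn), a protein of the MAGE family, was higher in 129S1/SvlmJ than in B6 eWAT on LFD. It was at 59.9, 50.3, 44.9 and 41.7 CPM in the 129S1/SvlmJ LFD controls of eWAT and at 22.2, 17.1, 22.9 and 17.9 CPM in the B6 LFD controls (log2 fold change 1.24 ± 0.14 SE, n = 4 each, edgeR adjusted p = 9.9e-05). It fell on HFD in 129S1/SvlmJ eWAT, to 37.1, 35.3, 36.4 and 37.7 CPM (log2 fold change -0.45 ± 0.11 SE, edgeR adjusted p = 0.010). That call was lost with all eWAT libraries in 1 fit (edgeR adjusted p = 0.078). In the first B6 eWAT set it averaged 16.9 ± 3.59 CPM on HFD and 26.1 ± 4.49 CPM on LFD (SD, n = 5 each; log2 fold change -0.64 ± 0.15 SE, edgeR adjusted p = 0.0030), with ranges that overlapped.

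Between depots of B6 mice on HFD, brown fat differed from iWAT most in Mest, which had 29.1, 11.2, 17.4 and 68.5 CPM in BAT and 772, 540, 632 and 810 CPM in the iWAT controls. The log2 fold change was -4.40 ± 0.44 (SE, n = 4 each; edgeR adjusted p = 7.7e-06), and -5.13 without BAT replicate 4. Plagl1 was at 2.91, 2.93, 2.67 and 1.57 CPM in BAT and 16.8, 35.0, 16.7 and 21.3 CPM in iWAT (log2 fold change -3.12 ± 0.32 SE, edgeR adjusted p = 9.9e-06). Of 9 members 6 were lower in BAT (Mest, Plagl1, Nnat, Peg3, Grb10 and Sgce) and 2 higher (Cdkn1c and Ndn), where 33.2% of all genes were lower and 32.1% higher. Ndn was at 70.8, 55.7, 51.8 and 57.5 CPM in BAT and 29.4, 25.9, 33.8 and 26.4 CPM in iWAT. Brown fat markers summed to 9956 to 12217 CPM in BAT and 43 to 92 CPM in the iWAT controls, and the 5 fat expansion genes were all lower in BAT (median log2 fold change -3.98). Adipocyte markers summed to 13010.5 to 14064 CPM in BAT and 26491 to 31719 CPM in the iWAT controls. Of 12 stromal markers 10 were lower in BAT, and of 10 macrophage markers 9. Per 1000 CPM of adipocyte markers, Peg3, Grb10, Sgce and H19 overlapped between BAT and iWAT. On that measure Mest, Nnat and Plagl1 were lower in BAT, and Cdkn1c, Ndn and Igf2 higher. The part of these lists was not tested.

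Between eWAT and iWAT of HFD controls, 5 of 10 members were lower and 1 (Cdkn1c) higher in eWAT of B6 mice, where 22.9% of all genes were lower and 26% higher, among adipocyte and macrophage markers that differed as above. Of these calls Plagl1 was lost on leaving out any library but eWAT replicate 1 or 3, and Cdkn1c without iWAT replicate 2. Without eWAT replicate 1, Peg3 (log2 fold change -3.43), Mest (-2.42) and Igf2 (-2.0) passed as well. In 129S1/SvlmJ mice 2 of 9 were lower in eWAT (Peg3, log2 fold change -0.79, and Mest, -1.01) and 1 higher (Plagl1, 0.67), where 7.71% of all genes were lower and 10.1% higher; none of these 3 calls passed when all eWAT and iWAT libraries were fitted together (edgeR adjusted p = 0.19 to 0.30; the 1 member called in that fit was H19, which the fit of 2 groups had filtered out), and Mest was lost without 129S1/SvlmJ eWAT replicate 3 or 4.

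Ordered by group mean, Mest spanned 61.0-fold and H19 61.4-fold between the highest and the lowest of the 15 groups, Plagl1 25.8-fold, Nnat 23.5-fold, Peg3 9.98-fold and Igf2 8.04-fold. Cdkn1c, Ndn, Sgce and Grb10 spanned 4.16-, 3.50-, 2.89- and 2.51-fold. The span of H19 is imprecise, since its lowest mean, 0.270 CPM in the second-set B6 eWAT LFD controls, came from 4 counts. Its highest mean, 16.6 CPM, was in the B6 iWAT LFD controls, which had much muscle transcript. Mest ran from 837 ± 126 CPM in B6 iWAT on HFD with rosiglitazone down to 13.7 ± 3.27 CPM in F1 iWAT with rosiglitazone. These orders mix groups with a high and a low share of reads on no gene. Most neighbours in these orders had overlapping libraries; for Mest 3 of the neighbouring pairs were apart, for Nnat 1 and for Ndn 1, and for the other 7 members none.

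Nnat, Plagl1, Sgce and Grb10 had alike orders of groups. Over the 15 group means on a log2 scale, Pearson's r was 0.94 for Nnat with Sgce, 0.93 for Plagl1 with Sgce and with Grb10, and 0.89 for Nnat with Plagl1. Within groups, over the 51 libraries other than B6 eWAT on HFD, it was lower. There r was 0.40 for Nnat with Sgce, 0.06 for Plagl1 with Sgce, 0.28 for Plagl1 with Grb10 and 0.12 for Nnat with Plagl1. Among 11184 other genes with a mean of at least 5 CPM, those most like Nnat over the 15 means were Gjc1 (0.981), Amotl1 (0.962) and Plin4 (0.954). For Plagl1 they were Chst1, Eepd1 and Mst1r, at 0.973 to 0.975. Eepd1 also led for Sgce (0.977), and Lrrc3 (0.975) led for Grb10. Peg3 was most like Zim1 (0.882), its imprinted neighbour, and Mest most like Unc79 (0.942) and Islr2 (0.937). H19 was most like Pvalb (0.908), Tnni2 and Pgam2, genes of fast skeletal muscle. These are descriptions over points that share libraries, depth and tissue and that differ in the share of reads on no gene.

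Other imprinted genes were counted from a list of 46, of which 23 to 31 were tested in a contrast. In F1 iWAT with rosiglitazone 4 of 23 rose and 7 fell (median log2 fold change -0.31), where 18.7% of all genes rose and 19.1% fell. In B6 eWAT on HFD 6 of 24 rose and 10 fell in the first set and 4 of 31 rose and 12 fell in the second (medians -0.36 and -0.43). Over all genes 29.5% rose and 28.5% fell in the first set, and 25.7% rose and 24.3% fell in the second. In 129S1/SvlmJ eWAT on HFD 5 of 25 rose and 1 fell (median 0.16), where 11.9% of all genes rose and 9.27% fell. Peg10, which lies beside Sgce, averaged 46.2 ± 8.99 CPM on HFD and 20.7 ± 9.53 CPM on LFD (SD, n = 4 each; log2 fold change 1.14 ± 0.25 SE, edgeR adjusted p = 0.0070). In B6 iWAT on HFD 3 of 29 rose and 6 fell, where 11.7% of all genes rose and 11.1% fell. Copg2, whose gene overlaps Mest, averaged 193 ± 18.6 CPM on HFD and 99.4 ± 9.82 CPM on LFD there (SD, n = 4 each; log2 fold change 0.95 ± 0.10 SE, edgeR adjusted p = 0.00049), and was lower in BAT than in iWAT (-1.30 ± 0.09), the directions of Mest. Without knowledge of strand, reads where Copg2 and Mest overlap cannot be assigned with certainty.

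Of genes of the IGF and insulin receptor axis, 8 of 11 fell and 0 rose with rosiglitazone in F1 iWAT (median log2 fold change -0.69, against -0.03 over all genes), where 19.1% of all genes fell and 18.7% rose. Igfbp4, a secreted IGF-binding protein, averaged 66.4 ± 20.7 CPM with the drug and 419 ± 49.0 CPM in the controls (SD, n = 5 each; log2 fold change -2.65 ± 0.18 SE). In B6 iWAT on HFD 4 of 11 fell with the drug and 0 rose (median -0.47), Igfbp4 among them at -1.42, where 13.2% of all genes passed in either direction. In B6 eWAT on HFD 8 of 12 fell and 1 rose in the first set, and 6 fell and 3 rose in the second, where 28.5% of all genes fell and 29.5% rose in the first set, and 24.3% fell and 25.7% rose in the second.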

How the data were processed

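RNA of mouse fat was extracted, depleted of ribosomal RNA and made into TruSeq libraries, per the labels' protocols. The authors deposited raw read counts per gene symbol for each library. TopHat2 (2.1.0), HTSeq and mm9 are named in the submitters' processing notes; strand, annotation and filters are not given in the sources used here. The tallies of unassigned reads were left out of library sizes and tests. No value that is printed mixes builds: promoter windows come from RefSeq on GRCm38.p6 and are not tied to the counts' build.

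Genes were tested in edgeR 4.0.16 (R 4.3.3, quasi-likelihood F test, TMM, filterByExpr), with Benjamini-Hochberg adjustment over all genes tested and a threshold of 0.05; the standard error is the size of the log2 fold change over the square root of F. Only the groups of a contrast entered its fit. The procedure was first tested on simulated data. All 10 members are reported. Of the other lists, counts were given and the genes named were among the called ones with the lowest adjusted p; Copg2, Blcap and Zim1 were named because they overlap or neighbour a member. The other settings tried were DESeq2 1.42.0, its size factors, no filter on low counts, a replicate block and leaving out each library. A further setting fitted all libraries of the contrast's own tissue or tissues together. The members and lists were chosen with earlier results of these data known. Between 987 and 26730 counts per library fell on the members, so low members such as H19 are the least precise. The labels did not say whether the replicate numbers pair the libraries. For BAT and iWAT every pair's correlation was over 0.1 (0.24 to 0.36, 4 of 4 pairs), and the count of 8 member calls there was the same with the block. In the B6 eWAT drug contrast 3 of 4 pairs were over 0.1 (-0.20 to 0.70).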

Additional observations from a re-analysis of the deposited data

Results flagged for a closer look

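A library stood far from the others of its group in 9 of 150 combinations of member and group, where 7.5 are expected by chance at 1 in 20. BAT replicate 4 was high for Peg3 (119 CPM, against 62.6 to 68.1 CPM in the other 3), Nnat (176 CPM, against 55.0 to 71.6 CPM) and Grb10 (45.5 CPM, against 35.8 to 37.3 CPM). BAT replicate 1 was high for Igf2 (10.6 CPM, against 4.27 to 5.23 CPM), and BAT replicate 3 was low for Cdkn1c (8.81 CPM, against 18.8 to 20.5 CPM). H19 was high at 2.57 CPM in replicate 3 of first-set B6 eWAT on LFD, whose muscle markers summed to 5368 CPM, at 3.74 CPM in rosiglitazone replicate 3 of B6 eWAT and at 17.7 CPM in HFD control replicate 3 of 129S1/SvlmJ iWAT. Sgce was high at 43.6 CPM in HFD control replicate 1 of B6 eWAT, against 22.0 to 25.0 CPM in the other 3.

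The diet effect in eWAT differed between 129S1/SvlmJ and B6 by edgeR's interaction term for Nnat (4.17 on the log2 scale), Peg3 (3.97), Plagl1 (2.52), Igf2 (1.93), Sgce (1.09) and Grb10 (0.90), 129S1/SvlmJ minus B6. In the B6 contrast and the 129S1/SvlmJ contrast the run differed between the diets, so run and diet cannot be told apart in either. The LFD controls of both strains shared a lane, and the HFD controls of both shared another. The interaction therefore compares strains that were sequenced together on each diet.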

How the results depend on the processing

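Of 64 member calls over all contrasts, 53 passed under every setting that gave a p, 11 were lost under at least 1 and 0 changed direction. Of 150 group means of members, 147 moved by less than 1 SD under another scaling. With all libraries of the tissues in 1 fit the number of members called was 1 in the B6 iWAT drug contrast (0 as reported), 5 in the B6 iWAT diet contrast (3), 1 in the 129S1/SvlmJ eWAT diet contrast (3) and 1 between eWAT and iWAT of 129S1/SvlmJ (3 others; this 1 was H19, filtered out of the reported fit); DESeq2 also called 1 in the B6 iWAT drug contrast. With each library left out in turn the number ran over 0 to 1 in that drug contrast, 3 to 5 in the B6 iWAT diet contrast, 3 to 4 in the 129S1/SvlmJ eWAT diet contrast, 3 to 5 between strains in iWAT controls, 2 to 4 with rosiglitazone, 4 to 9 between eWAT and iWAT of B6 and 2 to 3 between them in 129S1/SvlmJ. With each library left out in turn the log2 fold change of Mest ran over -0.42 to 1.40 with rosiglitazone in B6 eWAT, -1.30 to 0.01 on HFD in the second B6 eWAT set and -0.50 to 0.82 between strains in eWAT on HFD, and that of H19 over -0.42 to 2.29 between strains in iWAT controls. None of these was called. Mest between strains in eWAT on HFD was at 0.49 with the replicate block. The replicate block left 6 member calls in the F1 drug contrast and moved no count of calls by over 1.5 times. Same-numbered libraries had correlations of -0.38 to 0.70, which cannot settle whether the number pairs libraries. The cause of these changes was not tested. Depth limits H19 and Igf2, which had few counts in most libraries.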
